A study of Homo sapiens with 6 samples.

Results

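The HOX genes of 4 chromosomal clusters, HOXA, HOXB, HOXC and HOXD, were followed in SH-SY5Y cells, a human neuroblastoma line, on 6 oligonucleotide arrays. They were chosen by name: every probe set whose only gene symbol in the platform annotation was HOXA, HOXB, HOXC or HOXD with a number. That gave 31 probe sets of 24 genes, of 19064 probe sets with 1 gene symbol that stand for 11963 genes. HOXA was represented by 1 gene (HOXA2), HOXB by 9 genes and 13 probe sets, HOXC by 7 genes with 1 probe set each, and HOXD by 7 genes and 10 probe sets. The other 15 of the 39 human HOX genes in the RefSeq gene table, 10 of them in HOXA, were not analysed here.

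Cells in 3 flasks received medium with free bilirubin at 140 nM (Bf 140 nM) and 3 flasks received medium with the solvent only (DMSO 0.6%), and RNA was taken after 4 h. No genetic change is given for either group, both were exposed to DMSO, and 1 cell line stands for neurons. Separate flasks and independent biological replicates were used, per the labels. Of 10 measured markers of noradrenergic neuroblasts, the cell of origin of this line, 7 lay above the background-like range defined below on all arrays, HAND2 on 3 of 6, and TH and INSM1 on none.

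HOX genes encode homeodomain transcription factors that give cells their position along the body axis. Within each cluster the genes are numbered by paralog group, from low numbers at the end used in the hindbrain and neck to high numbers at the end used in the lower trunk, limbs and tail. Sympathetic neuroblasts come from the trunk neural crest, and neuroblastoma and its lines retain part of a HOX code.

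For 10 of the 24 genes RefSeq's promoter table (GRCh38.p14) had an entry, and the 250 bases upstream of the annotated start are shown for 1 gene of each cluster. In each cluster this was the gene with an entry whose level stood highest against the background-like range. HOXC4 and HOXC5 had identical entries (0 differing bases), and RefSeq gives 3 genes, HOXC4, HOXC5 and HOXC6, the same start. Capitals mark CCAAT, the box bound by NF-Y, and TGATNNAT, a composite site of HOX proteins with their PBX partners, each searched on both strands, so that capitals reading ATTGG are CCAAT, and in HOXA2 those reading ATCAATCA are TGATNNAT, on the other strand. The windows are HOXC4 at chr12:54016638-54016887 (plus strand), HOXD4 at chr2:176151300-176151549 (plus strand), HOXB1 at chr17:48531012-48531261 (minus strand) and HOXA2 at chr7:27102684-27102933 (minus strand).
HOXC4 and HOXC5: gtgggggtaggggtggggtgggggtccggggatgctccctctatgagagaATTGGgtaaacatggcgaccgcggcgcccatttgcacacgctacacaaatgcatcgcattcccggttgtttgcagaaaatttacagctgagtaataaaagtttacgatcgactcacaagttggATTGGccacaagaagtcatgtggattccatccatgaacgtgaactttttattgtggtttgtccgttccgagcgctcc
HOXD4: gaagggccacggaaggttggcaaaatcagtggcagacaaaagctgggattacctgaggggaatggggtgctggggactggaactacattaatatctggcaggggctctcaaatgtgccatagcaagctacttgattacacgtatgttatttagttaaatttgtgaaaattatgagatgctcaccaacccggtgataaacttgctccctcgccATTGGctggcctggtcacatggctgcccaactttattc
HOXB1: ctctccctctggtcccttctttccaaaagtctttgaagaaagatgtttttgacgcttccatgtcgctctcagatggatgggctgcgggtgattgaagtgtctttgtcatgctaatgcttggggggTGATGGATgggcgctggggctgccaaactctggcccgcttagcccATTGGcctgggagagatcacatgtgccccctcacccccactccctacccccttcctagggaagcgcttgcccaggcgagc
HOXA2: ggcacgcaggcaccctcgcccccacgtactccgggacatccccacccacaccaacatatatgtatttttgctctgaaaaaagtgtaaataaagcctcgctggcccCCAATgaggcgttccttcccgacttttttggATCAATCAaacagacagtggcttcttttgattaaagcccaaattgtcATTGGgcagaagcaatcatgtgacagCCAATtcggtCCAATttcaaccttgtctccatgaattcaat

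The window of HOXC4 and HOXC5 held CCAAT 2 times and TGATNNAT 0 times, while that of HOXA2 held CCAAT 4 times and TGATNNAT 1 time. CCAAT stood in 9 of the 10 HOX windows, against 32.0% of the 35116 promoters in the table, and TGATNNAT in 3 of 10, against 6.47%. The ratio of observed to expected CpG was above the table's median of 0.56 in 8 of the 10 windows and had a median of 0.89 among them. The window of HOXD4 was at 0.29. Entries that are identical were counted for each gene, and a match describes letters only.

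Which clusters and paralog positions stood above background was examined first. The values are normalised levels on a generalised log2 scale that flattens at low signal, so that folds of dim transcripts come out too small. With no detection calls in the table, background was taken from 113 probe sets of 86 genes restricted to tissues such as liver, muscle, skin, eye and testis. Their 95th percentile on each array was the upper limit, and it lay between 7.70 and 7.85. Levels are set against this limit only, since probe sets differ in brightness for reasons other than RNA amount.

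Genes above the limit on all 6 arrays numbered 5, each with 1 probe set: HOXC4, HOXC5, HOXC6, HOXC11 and HOXD9. These are 5 of 31 HOX probe sets (16.1%), against 47.5% of all probe sets and 2.65% of the tissue-restricted ones. The last share is low by construction, since the limit was set on those same probe sets. Another 3 probe sets, of HOXC10, HOXD4 and HOXD11, passed on some arrays and 23 on none. By cluster, 4 of 7 genes were above in HOXC, 1 of 7 in HOXD, 0 of 9 in HOXB and 0 of 1 in HOXA. By paralog number, groups 4, 5, 6, 9 and 11 had a gene above and groups 1, 2, 3, 7, 8, 10, 12 and 13 had none among the genes measured.

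**Figure D1:**
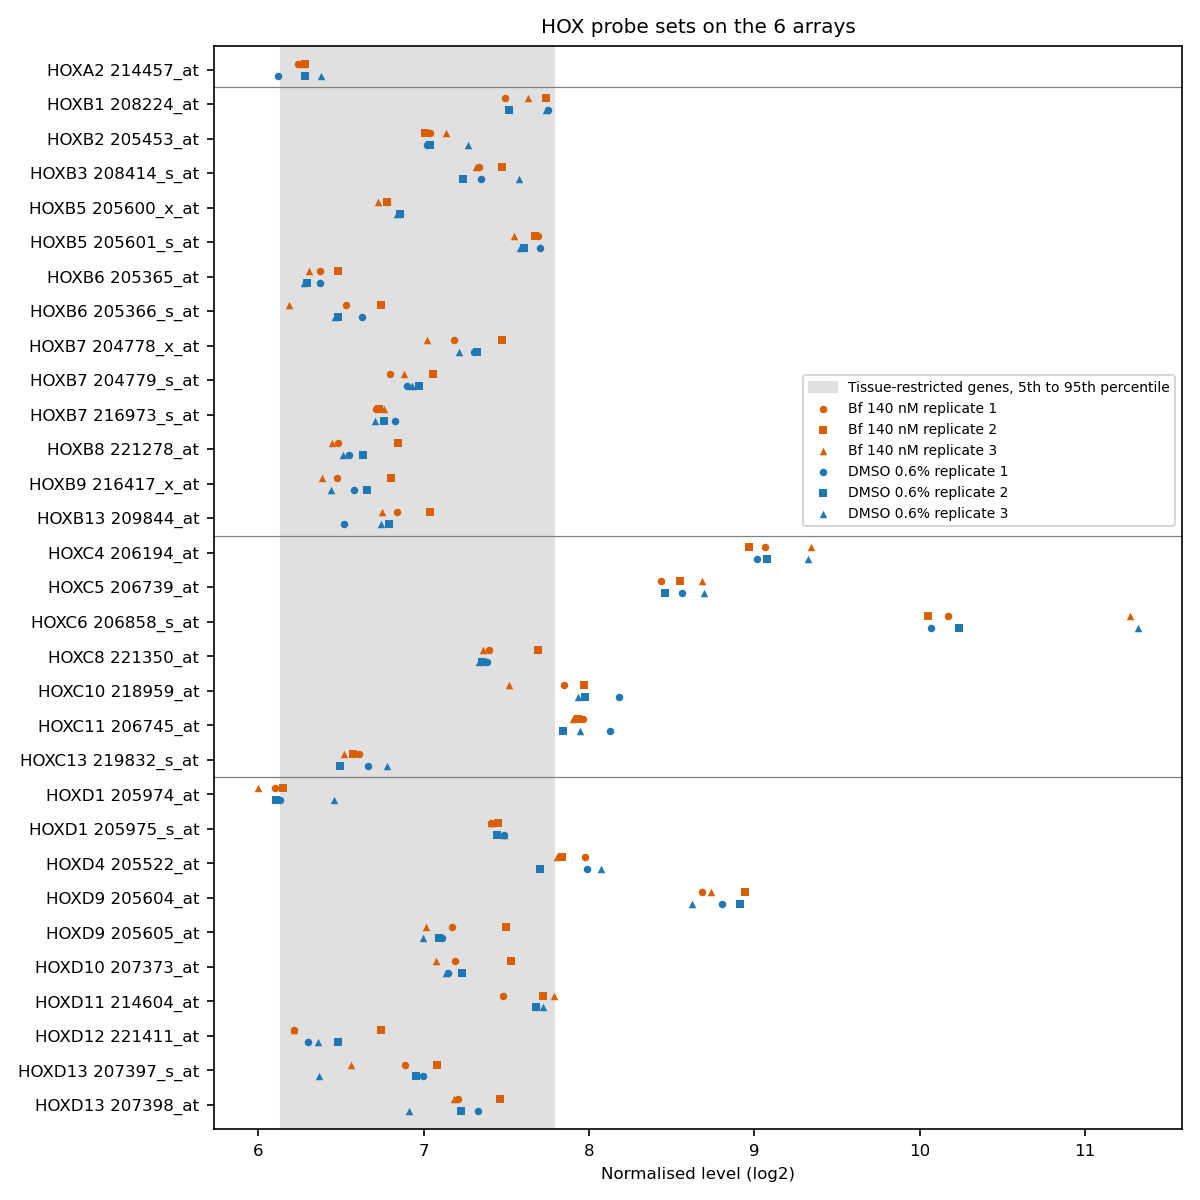
Normalised level (log2, horizontal axis) of the 31 HOX probe sets on each array, with Bf 140 nM in orange above DMSO 0.6% in blue and marker shape giving the replicate number; the grey band spans the 5th to 95th percentile of tissue-restricted genes, averaged over the arrays. HOXC4, HOXC5, HOXC6, HOXC11 and the 205604_at probe set of HOXD9 lie right of the band on all 6 arrays, and every HOXB point lies at 7.75 or less.

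HOXC6, a trunk-level HOX gene, had levels of 10.17, 10.05 and 11.27 in Bf 140 nM replicates 1, 2 and 3, against 10.07, 10.24 and 11.32 in DMSO 0.6%. It exceeded the limit by 2.21 to 3.56 over the arrays. The third array of each group was high, and the groups overlapped. Its only probe set carries the suffix of sets that can match more than 1 transcript.

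HOXC4, a gene of the neck level, stood at 9.06, 8.97 and 9.34 in Bf 140 nM and at 9.01, 9.08 and 9.32 in DMSO 0.6%, or 1.13 to 1.64 above the limit. HOXC5, which lies between HOXC4 and HOXC6, stood at 8.43, 8.55 and 8.68 in Bf 140 nM and at 8.56, 8.46 and 8.69 in DMSO 0.6%. It was 0.64 to 0.98 above the limit. For both genes the groups overlapped and the third array was again the highest of each group.

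HOXD9, a lower-trunk gene that also patterns limbs, was the one HOXD gene above the limit on all arrays. Its probe set 205604_at read 8.68, 8.94 and 8.74 in Bf 140 nM and 8.81, 8.91 and 8.62 in DMSO 0.6%, overlapping between groups. The other HOXD9 probe set, 205605_at, read 7.17, 7.50 and 7.01 in Bf 140 nM and 7.11, 7.10 and 7.00 in DMSO 0.6%, below the limit on every array. The 2 probe sets of this gene therefore did not place it alike.

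HOXC11, a gene of the lower axis, was only just above the limit, by 0.09 to 0.28, at 7.97, 7.93 and 7.90 in Bf 140 nM and 8.13, 7.84 and 7.94 in DMSO 0.6%. HOXC10, its neighbour, stood at 7.85, 7.97 and 7.52 in Bf 140 nM and 8.18, 7.98 and 7.93 in DMSO 0.6%, where only Bf 140 nM replicate 3 was under the limit. HOXD4 stood at 7.98, 7.84 and 7.81 in Bf 140 nM and 7.99, 7.70 and 8.07 in DMSO 0.6%, under the limit only in Bf 140 nM replicate 2. These 3 genes sat at the border of the range, and their calls depend on where the limit is drawn. HOXD11 passed it only in Bf 140 nM replicate 3, with 7.48, 7.72 and 7.79 in Bf 140 nM and 7.68, 7.68 and 7.72 in DMSO 0.6%.

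The remaining HOXC genes, HOXC8 and HOXC13, did not pass on any array, so that HOXC8 lay between genes above the limit, HOXC6 and HOXC11. HOXC8, a thoracic-level gene, read 7.40, 7.69 and 7.36 in Bf 140 nM and 7.38, 7.35 and 7.34 in DMSO 0.6%. In HOXB, whose 13 probe sets covered paralogs 1, 2, 3, 5, 6, 7, 8, 9 and 13, levels ran between 6.19 and 7.75. The HOXB probe sets closest to the limit were those of HOXB1, a hindbrain gene, at 7.49, 7.74 and 7.63 in Bf 140 nM and 7.75, 7.52 and 7.74 in DMSO 0.6%, and 205601_s_at of HOXB5, at 7.69, 7.68 and 7.55 against 7.70, 7.60 and 7.58. Neither passed on any array. HOXA2, the hindbrain and branchial arch gene that alone represented HOXA, read 6.24, 6.29 and 6.27 in Bf 140 nM and 6.12, 6.29 and 6.38 in DMSO 0.6%, with a mean distance from the limit of -1.53.

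**Figure D2:**
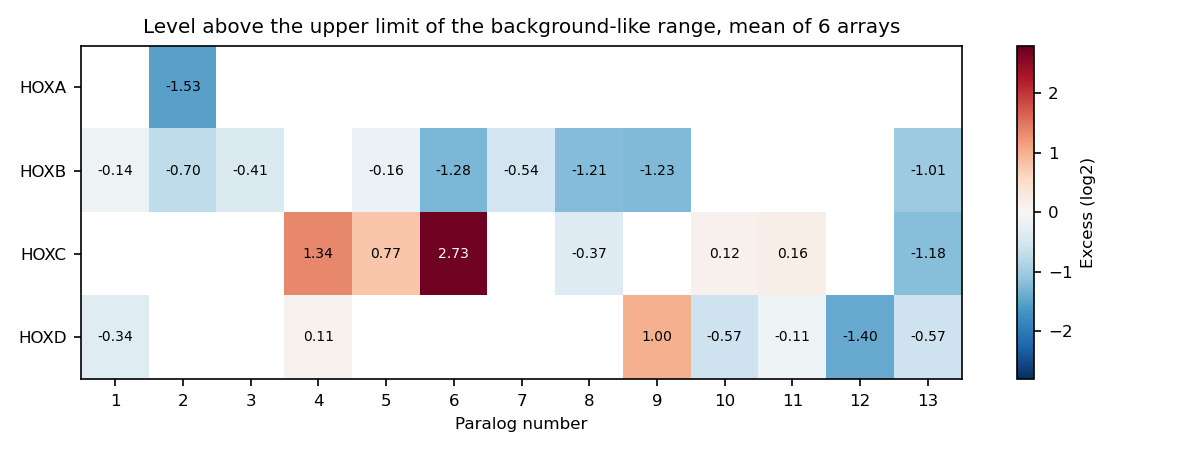
Mean distance (log2) over the 6 arrays from the upper limit of the background-like range, by cluster (vertical axis) and paralog number (horizontal axis), with the probe set of each gene that stands highest; red is above the limit, blue is below, and white positions were not analysed here. HOXC4, HOXC5, HOXC6 and HOXD9 are 1.34, 0.77, 2.73 and 1.00 above it, and no HOXB position is above it.

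The second question was whether HOX levels differed after 4 h of bilirubin. No HOX probe set did by the test used: limma left 0 of 31 below an adjusted p of 0.10, after Benjamini-Hochberg adjustment over all 22215 probe sets, with 0.0% of them past it. At an unadjusted p under 0.05 there were 0 of 31 HOX probe sets and 17 of all probe sets (0.0765%). Evenly spread p-values would put a share of 0.05 of all probe sets there, so the unpaired test was strict on these arrays. Its error holds the differences between replicate numbers, and 0 calls do not show equal levels. Blocking on the replicate number also left 0 HOX probe sets at either level. Every adjusted p of the HOX probe sets was 1.00. In bulk RNA a smaller share of cells of a type and less RNA per cell cannot be told apart.

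The difference, Bf 140 nM minus DMSO 0.6%, was above 0 for 12 and below 0 for 19 of the 31 probe sets, with a median of -0.01 against 0.03 for all probe sets. It was within 0.1 of 0 for 25 of them. The cluster medians were 0.004 for the 1 probe set of HOXA, -0.02 for HOXB, -0.04 for HOXC and 0.01 for HOXD. For 30 of 31 HOX probe sets the 95% confidence interval of the fold lay within 2-fold in both directions, and for 29 within 1.5-fold, where all probe sets had shares of 97.8% and 85.7%. For the 23 probe sets within the background-like range on every array, a narrow interval says little of the transcript itself.

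Among genes above the limit, HOXC4 had a fold of 0.990 (95% CI 0.792 to 1.24), HOXC5 of 0.990 (0.824 to 1.19), HOXC11 of 0.975 (0.820 to 1.16) and HOXD9 (205604_at) of 1.01 (0.826 to 1.22). HOXC6 had a fold of 0.969 with the widest interval of all HOX probe sets, 0.493 to 1.90. With the replicate number as a block that interval was 0.811 to 1.16. Its differences within replicate numbers 1, 2 and 3 were 0.10, -0.19 and -0.05.

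HOXC10 had the lowest difference, -0.25 ± 0.14 (SE, n = 3 arrays each; fold 0.839, 95% CI 0.664 to 1.06; unadjusted p = 0.120 and adjusted p = 1.00 by limma). With the replicate number as a block the interval of HOXC10 was 0.696 to 1.01 (unadjusted p = 0.0639 by limma). The differences of HOXC10 within replicate numbers were -0.34, -0.01 and -0.42, and with 1 array left out the difference ran from -0.35 to -0.12. HOXB13, a gene of the tail end and prostate, had the highest, 0.19 ± 0.12 (SE; fold 1.14, 95% CI 0.933 to 1.40; unadjusted p = 0.166 by limma), with values of 6.84, 7.04 and 6.75 in Bf 140 nM and 6.52, 6.79 and 6.74 in DMSO 0.6%. With 1 array left out its difference ran from 0.11 to 0.25. The groups overlapped for both genes, and HOXB13 stayed within the background-like range.

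The other probe sets named for a low unadjusted p all remained far from the threshold. On the higher side were 205605_at of HOXD9 with 0.16 ± 0.14, HOXC8 with 0.12 ± 0.12 and 207398_at of HOXD13, a digit and tail gene, with 0.13 ± 0.14 (difference ± SE). The 207398_at values were 7.21, 7.46 and 7.18 in Bf 140 nM and 7.33, 7.23 and 6.91 in DMSO 0.6%. On the lower side were 205974_at of HOXD1 with -0.15 ± 0.12 and HOXC13, known for its part in hair follicles, with -0.08 ± 0.11. The 205974_at values were 6.10, 6.15 and 6.00 in Bf 140 nM and 6.13, 6.11 and 6.46 in DMSO 0.6%. HOXC13 read 6.61, 6.57 and 6.52 in Bf 140 nM and 6.67, 6.49 and 6.78 in DMSO 0.6%. For all 5 of these probe sets the groups overlapped. Only 205600_x_at of HOXB5 had groups that did not overlap, at 6.78, 6.78 and 6.73 in Bf 140 nM and 6.86, 6.86 and 6.84 in DMSO 0.6%. Its difference was -0.09 ± 0.09 (SE), and the gene's other probe set differed by 0.01. That is 1 of 31 HOX probe sets, where 2.66% of all probe sets did not overlap 0.981% with Bf 140 nM lower and 1.68% with it higher.

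**Figure D3:**
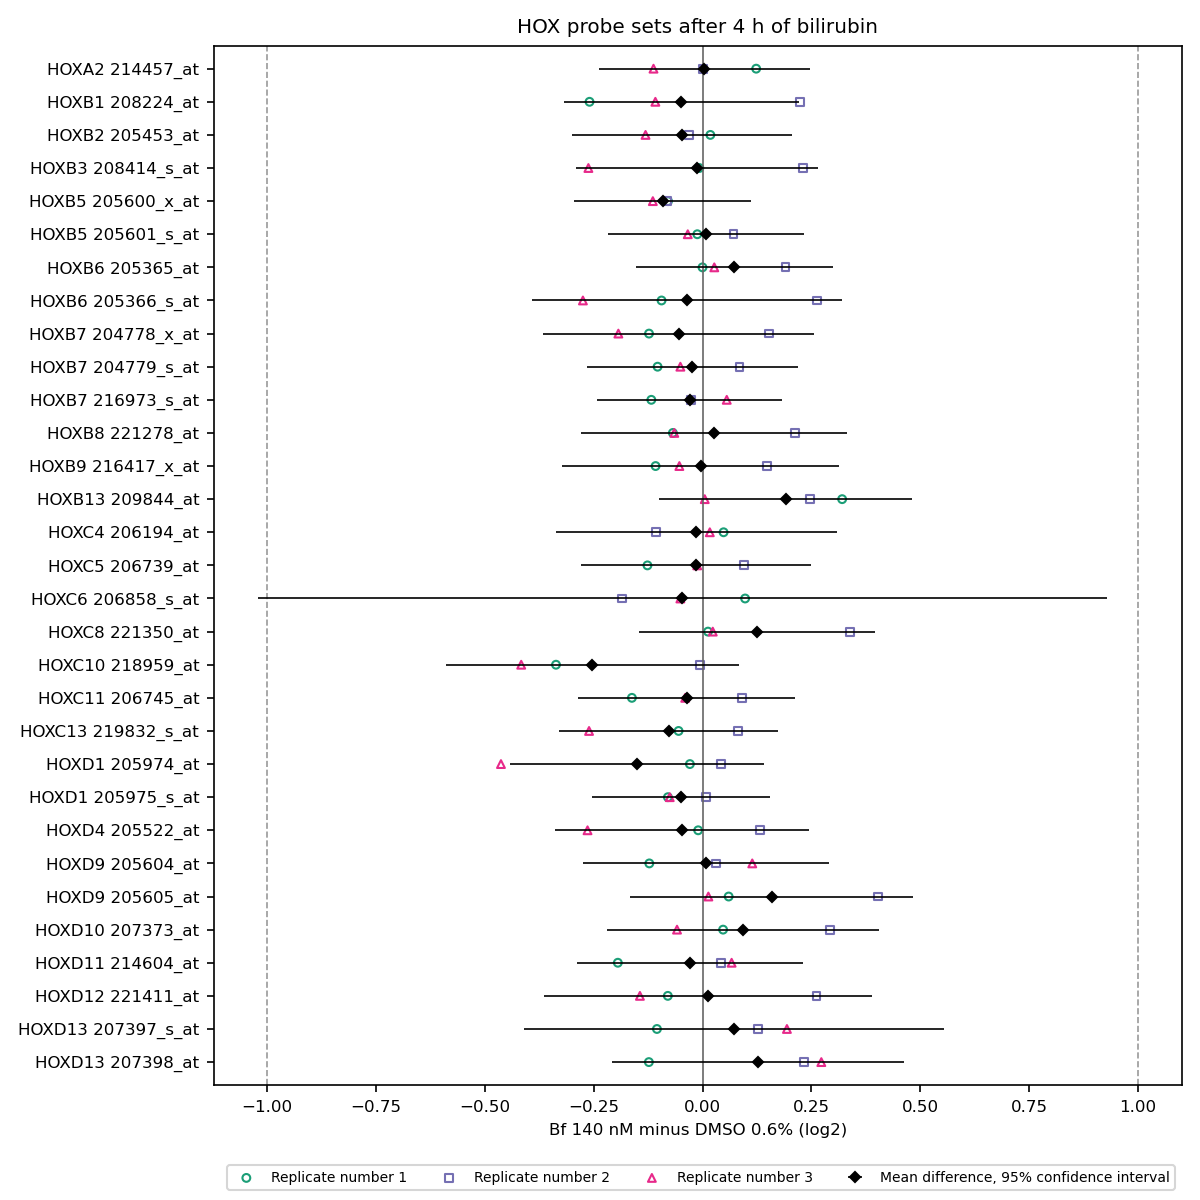
Bf 140 nM minus DMSO 0.6% (log2, horizontal axis) for the 31 HOX probe sets: black diamonds are means with 95% confidence intervals from limma, open symbols the difference within each replicate number, and dashed lines mark 2-fold. Every interval spans 0, the means run between -0.25 for HOXC10 and 0.19 for HOXB13, and only the interval of HOXC6 reaches a dashed line.

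By replicate number, the HOX differences had medians of -0.08, 0.09 and -0.05 in numbers 1, 2 and 3, and were above 0 for 8, 25 and 10 of the 31 probe sets. In number 2 the 23 probe sets within the background-like range had a median of 0.15, with 20 above 0. The 113 tissue-restricted probe sets had medians of -0.01, 0.14 and -0.11 in the same order, with 45.1%, 86.7% and 19.5% above 0. Over all probe sets the shares above 0 were 57.3%, 49.1% and 57.5%. HOX and tissue-restricted probe sets were thus both mostly above 0 in number 2 and mostly below 0 in number 3, while in number 1 the HOX share, 25.8%, lay below the tissue-restricted share, and the part of dim signal in these counts was not tested. All 3 differences were above 0 for 3 HOX probe sets, where 8.96% of all probe sets had this, and below 0 for 2, where 4.7% had it.

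The largest contrast among the HOX genes lay between replicate numbers rather than between treatments. HOXC6 was higher in replicate 3 than in the mean of replicates 1 and 2 by 1.16 in Bf 140 nM and by 1.17 in DMSO 0.6%, or 2.24-fold on average. Only 36 of 22215 probe sets (0.162%) were higher in replicate 3 by as much, HOXC6 included. In a limma F test of the replicate number, chosen after these values were seen, its adjusted p over all probe sets was 0.00184. This F test covers any difference among the replicate numbers, not replicate 3 alone. By that test 2 of 31 HOX probe sets (6.45%) passed 0.10, against 11.0% of all probe sets. These shares were not matched for level.

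HOXC4 and HOXC5 did not pass that test. HOXC4 had 0.32 in Bf 140 nM and 0.28 in DMSO 0.6% (adjusted p = 0.327, limma F test), and 9.48% of all probe sets were higher in replicate 3 by as much. HOXC5 had 0.19 in Bf 140 nM and 0.18 in DMSO 0.6% (adjusted p = 0.692), and 16.1% of all probe sets were higher by as much. The other HOXC genes stood at -0.11 for HOXC8, -0.27 for HOXC10, -0.04 for HOXC11 and 0.06 for HOXC13 (mean of both groups; adjusted p between 0.473 and 0.907). The 6 measured genes flanking the cluster stood between -0.29 (CBX5) and 0.28 (HNRNPA1), and 0 of 6 passed 0.10 in the limma F test. The other HOX probe set past 0.10 was 207397_s_at of HOXD13, lower in replicate 3 by 0.43 in Bf 140 nM and by 0.61 in DMSO 0.6% (adjusted p = 0.0632, limma F test), at levels within the background-like range. The second HOXD13 probe set differed by -0.26 (adjusted p = 0.486).

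Control probe sets and other genes also differed by replicate number. The 3' minus 5' difference of the ACTB control probe sets, larger where labelled transcripts are less complete, was 0.89 in Bf 140 nM replicate 3 and 2.21 in DMSO 0.6% replicate 3, against 0.11 to 0.49 on the other arrays. The HOXC6 levels of these 2 arrays were 11.27 and 11.32. Of 10 noradrenergic markers 1 passed the F test, ISL1, a factor of sympathetic neuroblasts, higher in replicate 3 by 0.59 (adjusted p = 0.0141). It read 12.44, 11.87 and 12.75 in Bf 140 nM and 12.49, 12.06 and 12.86 in DMSO 0.6%, lowest in replicate 2. The 10 noradrenergic markers had a median of -0.11 in the contrast of replicate 3 with the others, and 4 of 10 were higher. Of 12 mesenchymal and Schwann cell markers 1 passed, COL3A1, a fibrillar collagen, which was 1.11 lower (adjusted p = 0.00210, limma F test). It fell from replicate 1 to 3, at 11.05, 10.15 and 9.71 in Bf 140 nM and 10.95, 10.37 and 9.33 in DMSO 0.6%. The p-values of the F test thus do not belong to replicate 3 alone. These 12 markers had a median of -0.06 in the replicate 3 contrast, with 5 of 12 higher. Their mean level ran from 8.42 to 8.53 in Bf 140 nM and from 8.42 to 8.58 in DMSO 0.6%. Of the 12 markers, 6 lay above the background-like range on all 6 arrays, among them TWIST1, FN1 and COL3A1. Another 5 were above it on no array, among them S100B, ERBB3 and CD44. Of the 18 Polycomb genes 5 passed, among them SUZ12 (0.83, adjusted p = 0.0190), CBX2 (-0.79, 0.00855) and RBBP4 (-1.12, 0.0297). So did 3 of 8 TALE, 2 of 13 trithorax and MLL, and 2 of 14 retinoic acid genes. Axial inputs had 1 of 6, anterior brain genes 1 of 10, insulator and cohesin genes 0 of 10 and tissue-restricted genes 0 of 86. The 11.0% of all probe sets is not matched to these lists for level. It counts dim probe sets too, while each listed gene enters with its brightest probe set. CBX2 was above the background-like range on only 3 arrays. It was highest in replicate 2, with 7.67, 8.28 and 7.17 in Bf 140 nM and 7.95, 8.20 and 7.30 in DMSO 0.6%. RBBP4 read 11.61, 10.87 and 10.84 in Bf 140 nM and 11.58, 11.12 and 9.505 in DMSO 0.6%, with its lowest value in DMSO 0.6% replicate 3. The part of any of these in the HOXC6 values was not tested.

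**Figure D4:**
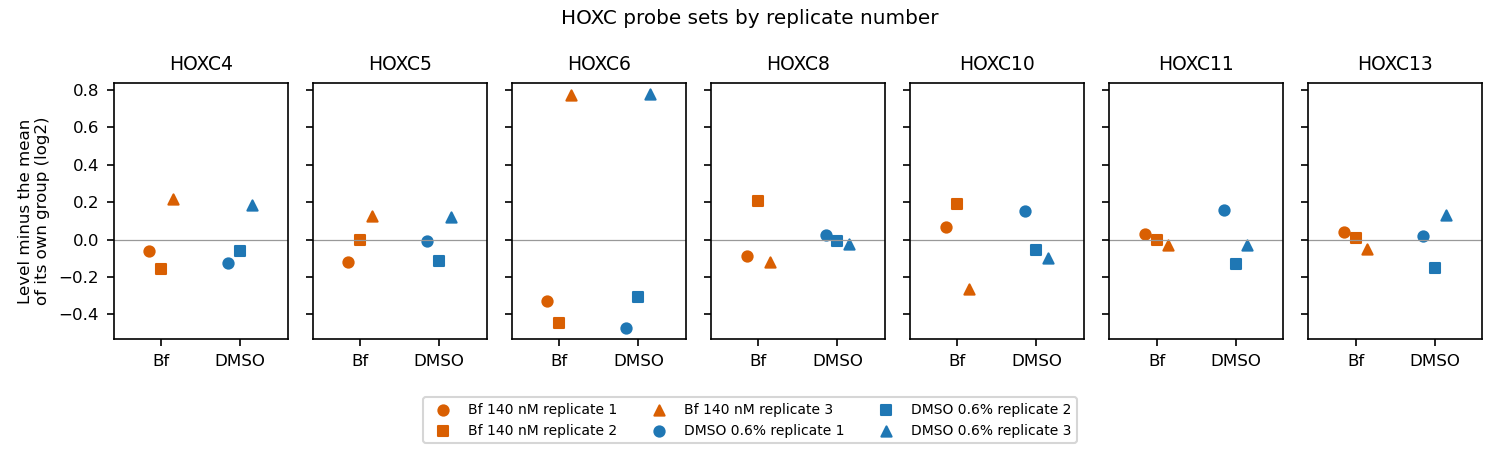
Level of the 7 HOXC probe sets minus the mean of their own group (log2, vertical axis), with Bf 140 nM in orange left of DMSO 0.6% in blue and marker shape giving the replicate number. Replicate 3 of HOXC6 stands above the other replicates by 1.16 in Bf 140 nM and 1.17 in DMSO 0.6%, and the other 6 genes did not pass the test of the replicate number.

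The proteins that work with HOX factors, and those that set the state of the clusters, were compared in the same fit by lists. TALE homeodomain proteins of the PBX, MEIS and TGIF families bind DNA together with HOX proteins or in the same class of sites. Of 11 listed, 8 were measured and 7 lay above the background-like range on all arrays. MEIS2, a direct partner, stood at 12.31 ± 0.29 in Bf 140 nM and 12.32 ± 0.03 in DMSO 0.6% (SD, n = 3 each). The list had 6 of 8 differences above 0, a median of 0.03 and 0 past the threshold, and its lowest unadjusted p belonged to PBX3 (0.18 ± 0.18) and TGIF1 (0.18 ± 0.24; difference ± SE).

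Trithorax and MLL complexes keep HOX clusters active and Polycomb complexes keep them silent. Of 13 measured trithorax and MLL genes 10 had differences above 0, with a median of 0.08 against 0.03 for all probe sets, and the lowest unadjusted p belonged to MLLT3 (0.15) and MEN1 (0.12). Of 18 measured Polycomb genes 9 were above 0, with a median of -0.00, and the lowest unadjusted p belonged to PHC1 (0.23) and RBBP7 (0.17). CTCF and cohesin divide the clusters into domains, and of these 10 genes 5 were above 0, with SMC3 at 0.28 and CTCF at 0.31. For SMC3 and CTCF most of this came from replicate number 3, where the differences were 1.01 and 0.84. In each of these lists 0 genes passed the threshold.

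Retinoic acid and axial signals open the clusters during development. Of 14 measured genes of retinoic acid synthesis and reception 7 had differences above 0, with RXRG and ALDH1A3 at 0.11 each, and 6 lay above the background-like range on all arrays. ALDH1A3 was among these 6, and RXRG was above the range on no array. Of 6 measured inputs of the CDX, FGF and related kind, 2 were above 0 and 2 lay above the range, with CDX1 at -0.12 and FGF8 at -0.08. CDX1 was above the range on all arrays and FGF8 on none. Of 10 measured genes listed as homeobox and related genes of the anterior brain, 1 lay above the range on all arrays, SIX3. It stood at 9.21 ± 0.34 in Bf 140 nM and 9.31 ± 0.41 in DMSO 0.6% (SD, n = 3 each). None of the genes in these lists passed the threshold (0 in each by limma).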

How the data were processed

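Total RNA of 6 flasks was hybridised to Affymetrix GeneChip arrays, 1 array each. The authors computed cell intensities in GCOS and normalised them with justvsn of the vsn package in R 2.5.0, so the deposited values are on a generalised log2 scale. The sources used here do not state how probes were combined. The maximum, 15.18, lies above the natural logarithm (11.09) and below the log2 (16.0) of the scanner limit. The deposited table held 22277 probe sets; 62 controls were left out of tests. Of the other 22215, 19064 had 1 symbol in the platform annotation, 1043 several and 2108 none. Array medians lay between 7.85 and 8.00. Arrays carry no read depth, and their number limits the precision.

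Groups were compared with limma 3.58.1 in R 4.3.3 (lmFit, eBayes), unpaired and two-sided, with Benjamini-Hochberg adjustment over all tested probe sets and a threshold of 0.10, as in the study's methods, which used SAM. No filter was applied. The fit was tested on simulated data with independent noise on each array. Those data held no differences between replicate numbers, so they do not show how the unpaired test behaves on these arrays. Same-numbered arrays of both groups deviated together (correlations of 0.60, 0.23 and 0.57, each above the minimum of 0.1), so the numbers were taken to pair them, and blocking on that number was an alternative. Other alternatives were quantile normalisation, centring, thresholds, a low-value filter, probe set types, other limits of the background-like range and each array left out. The members, gene lists and alternatives were chosen with earlier results of these data known; the F test of the replicate number was added after its values were seen. Values per array are given for up to 10 genes standing highest against the limit, the 4 higher and 4 lower probe sets with the lowest unadjusted p, and those without overlap. From each list up to 2 genes with the lowest p are named; others were chosen after their values were seen. A gene in a list is its probe set with the highest mean. The authors' SAM results were not used.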

Additional observations from a re-analysis of the deposited data

How the results depend on the processing

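Of 267 alternative values, 242 kept their direction and side of the threshold or moved within the limits set, 3 moved and 22 differences of single probe sets changed sign; none of these was a called difference. The count of HOX probe sets past the threshold was 0 under every alternative run, the replicate block included (0), so the block changed no call. The median HOX difference was -0.01 with the replicate block and lay between -0.05 and 0.02 with 1 array left out; its sign changed in 3 alternatives, without Bf 140 nM replicate 1 (0.017), without Bf 140 nM replicate 3 (0.0019) and without probe sets ending in _s_at or _x_at (0.0036). The number of HOXD genes above the background-like range was 1, and 2 with the limit at the 90th percentile, with the mean over the 6 arrays or without Bf 140 nM replicate 2, where HOXD4 joined HOXD9; over the arrays left out it ran from 1 to 2. With the limit at the 99th percentile or at the array median, HOXC11 was no longer above it. Without probe sets of types that can match several transcripts, 4 genes were left above it, since HOXC6 has no other. HOXC10 joined with the mean over the arrays or without Bf 140 nM replicate 3. Sign changed for the difference of HOXD9 (205604_at), to -0.046 with quantile normalisation and -0.025 with arrays centred on the median, and for HOXB5 (205601_s_at), to -0.018 and -0.024 with the same settings; the cause was not tested. With 1 array left out the difference ran from -0.43 to 0.34 for HOXC6, -0.12 to 0.079 for HOXC4, -0.078 to 0.047 for HOXC5, -0.10 to 0.042 for HOXC11, -0.071 to 0.073 for HOXD9 (205604_at), -0.16 to 0.028 for HOXD4, -0.091 to 0.063 for HOXD11, -0.12 to 0.016 for HOXB1 and -0.018 to 0.054 for HOXB5 (205601_s_at). It ran from 0.023 to 0.27 for HOXD9 (205605_at), 0.021 to 0.19 for HOXC8, 0.0042 to 0.22 for HOXD13 (207398_at), -0.21 to -0.037 for HOXD1 (205974_at) and -0.15 to -0.011 for HOXC13. The excess of HOXC6 in replicate 3 was 1.10 with quantile normalisation and 1.27 with centring, settings applied to it after seeing the data.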

Other observations

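HOXD3 and HOXD4 share 3 further probe sets that the platform annotation gives to several genes. They were not counted among the HOX members. 206601_s_at read 8.32, 8.18 and 8.26 in Bf 140 nM and 8.44, 8.28 and 8.02 in DMSO 0.6%, above the background-like range on all 6 arrays and overlapping between groups. The other 2, 206602_s_at and 217076_s_at, were above it on no array. Which of the annotated genes gives the signal of 206601_s_at cannot be told apart. Of the 20 measured genes flanking the 4 clusters, 4 passed 0.10 in the limma F test of the replicate number. The share of all probe sets was 11.0%, not matched to these genes for level. As the mean of both groups, replicate 3 exceeded the mean of replicates 1 and 2 by 0.55 for MTX2 and 0.39 for NFE2L2 beside HOXD. The same contrast was 0.61 for TAX1BP1 beside HOXA and 0.45 for ATP5MC1 beside HOXB. In the limma F test their adjusted p was 0.0472, 0.0360, 0.0271 and 0.0747 in that order. These p-values cover any difference among the replicate numbers, not replicate 3 alone.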
